A study of Mus musculus with 3 samples.

Results

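The 10 genes described here are the transcription factor genes *Foxp1*, *Foxp2*, *Foxp4*, *Meis2*, *Tshz1*, *Tshz2*, *Pax6*, *Zfhx3*, *Six3* and *Isl1*, known from striatal and intercalated neurons. They were taken by symbol from the 32285 genes listed in the data, and all 10 were found. Nuclei came from the basolateral amygdala (BLA) of male C57BL/6NRj mice at postnatal day 56, with tissue of 4 brains pooled per dataset, and were measured by single-nuclei RNA sequencing (snRNAseq) in 3 libraries of 1 condition. Each droplet gives a nucleus a barcode, and each captured RNA molecule carries a unique molecular identifier (UMI) that is counted once. No genetic change, treatment or second age was compared, and the study states that the mice of a dataset were littermates. Whether the libraries came from separate pools is not settled by the sources used here, so p-values measure only the spread between these libraries.

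GABAergic barcodes were those with at least 2 UMIs of *Gad1* and *Gad2* (the enzymes that make GABA) and 0 of *Slc17a7* and *Slc17a6* (the vesicular glutamate transporters). Glutamatergic barcodes were the converse, and in both the astrocyte transporters *Slc1a2* and *Slc1a3* had to hold less than 0.1% of the UMIs. Library 2 gave 388 GABAergic and 484 glutamatergic barcodes, and library 3 gave 677 and 208, of 9199 barcodes in all. None of the 10 genes enters that rule.

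As background, neurons of the striatum and of the intercalated cell masses, clusters of small GABAergic neurons that surround the BLA, arise from the lateral ganglionic eminence of the embryonic brain, whereas most cortical and BLA interneurons come from the medial and caudal eminences and BLA projection neurons from the pallium. Forkhead factors of the Foxp family act as dimers in differentiating striatal and cortical neurons. *Meis2* encodes a TALE homeodomain factor, *Tshz1* and *Tshz2* encode teashirt zinc finger factors, *Pax6* a paired box factor, *Zfhx3* a zinc finger homeobox factor, *Six3* a sine oculis homeobox factor and *Isl1* a LIM homeodomain factor. *Six3* and *Isl1* are known from the specification of the indirect and direct pathway neurons of the striatum, and *Tshz1* from the development of intercalated cells.

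All 10 are protein-coding genes (positions on GRCm38, the assembly that mm10 names). *Foxp1* (ENSMUSG00000030067) spans chr6:98925338-99522721, *Foxp2* (ENSMUSG00000029563) chr6:14901349-15441977 and *Foxp4* (ENSMUSG00000023991) chr17:47867133-47924645. *Meis2* (ENSMUSG00000027210) lies at chr2:115863064-116065839, *Pax6* (ENSMUSG00000027168) at chr2:105668900-105697364 and *Tshz2* (ENSMUSG00000047907) at chr2:169633013-170071816. *Tshz1* (ENSMUSG00000046982) lies at chr18:84011627-84087706, *Zfhx3* (ENSMUSG00000038872) at chr8:107942644-108961630, *Six3* (ENSMUSG00000038805) at chr17:85613608-85629302 and *Isl1* (ENSMUSG00000042258) at chr13:116298281-116309689. Their spans run from 11409 to 1018987 bases, and since nuclear RNA holds introns, levels were compared between barcode sets and not between genes.

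The libraries held 819, 3792 and 4588 barcodes with 8078394, 24354374 and 33049068 UMIs, and at most 7 barcode sequences were shared by any pair of libraries. Library 1 stood apart: of its 574 barcodes with at least 2 UMIs of the glutamate transporters, 445 also held a UMI of *Gad1* or *Gad2*, so only 42 glutamatergic and 7 GABAergic barcodes were left, and it entered only as an alternative. The same counts were 52 of 561 in library 2 and 112 of 341 in library 3, so libraries 2 and 3 differed in this too. GABAergic barcodes had median depths of 7646 and 7246 UMIs in libraries 2 and 3, and glutamatergic barcodes 15525.5 and 13115, so shares of barcodes with a UMI were also taken after thinning each barcode to 2000 UMIs. Of the markers that the rule did not use, *Slc32a1* (the vesicular GABA transporter) was found in 15.2% and 9.45% of GABAergic and 0.413% and 0.962% of glutamatergic barcodes, and *Neurod6* (a pallial factor) in 0.258% and 0.591% against 8.47% and 5.77%.  Confidence intervals are exact Clopper-Pearson intervals at 95% and, like the upper limits for counts of 0, cover counting error only.

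The first comparison asked in which of the main neuron classes the factors were transcribed. *Foxp2*, *Meis2*, *Tshz1*, *Pax6*, *Six3* and *Zfhx3* were higher in GABAergic than in glutamatergic barcodes, *Tshz2* was lower, and *Foxp1* and *Foxp4* did not pass the test. UMIs were summed per class and library (3570604 and 5954740 GABAergic, 8398155 and 3171917 glutamatergic UMIs) and tested with edgeR across 12865 genes, with Benjamini-Hochberg adjustment and a threshold of 0.05. Of the 9 factors tested, 6 were called higher, where 8.73% of all genes were, and 1 was called lower, where 7.75% were. Genes with low counts were filtered out before the test. *Six3* and *Pax6* passed this filter only through their GABAergic sums, so they could hardly have been called lower. With no filter, 6 of 10 factors were called higher, where 5.67% of 22801 genes were, and 1 lower, where 5.78% were. Levels are given as CPM, the UMIs of a gene relative to all UMIs of the class.

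**Figure D1:**
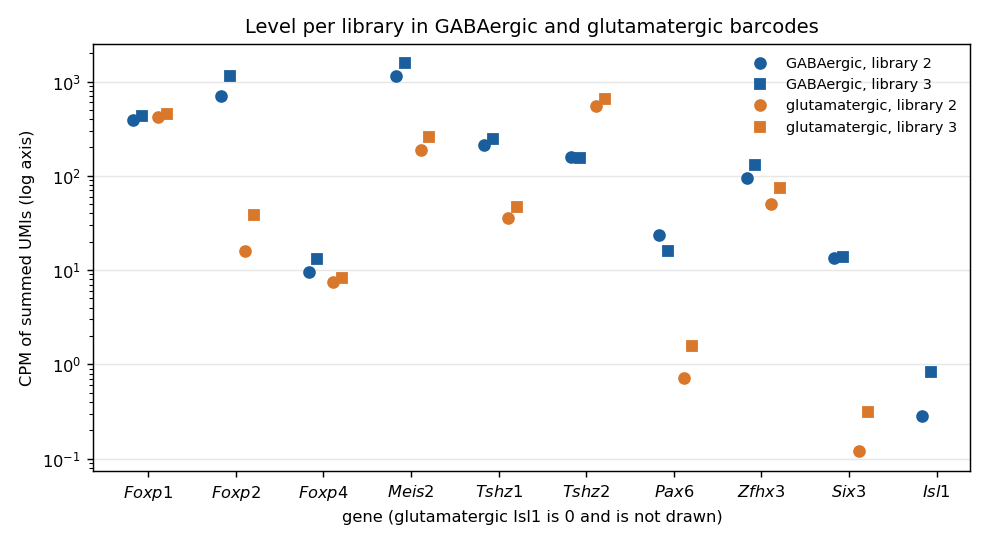
Each point is the CPM of 1 gene in the summed UMIs of 1 class and library (log axis, circles library 2, squares library 3). *Foxp2*, *Meis2*, *Tshz1*, *Pax6*, *Zfhx3* and *Six3* lie higher in both GABAergic sums, *Tshz2* lies lower, and the *Foxp1* points of both classes lie between 393 and 448.

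*Foxp2*, the factor by which the study marks intercalated cells, stood at 700.4 CPM in library 2 and 1141 CPM in library 3 in GABAergic barcodes, and at 15.96 and 38.1 CPM in glutamatergic barcodes. The classes were far apart in both libraries (log2 fold 5.13 ± 0.45, SE, edgeR adjusted p = 5.08e-06). A *Foxp2* UMI was found in 44.1% (39.1% to 49.2%) and 59.4% (55.6% to 63.1%) of GABAergic barcodes and in 10.5% and 17.8% of glutamatergic ones. At an equal 2000 UMIs the shares were 38.7% and 51.9% against 1.90% and 6.34%. In oligodendrocyte-marker barcodes, taken as a type that should lack the gene, they were 8.93% and 10.5% at that depth, not below the glutamatergic shares. In each library 3 glutamatergic barcodes held 10 or more *Foxp2* UMIs. The highest count in an oligodendrocyte-marker barcode was 10 in library 2 and 17 in library 3. The spread between libraries of 44.1% and 59.4% was larger than either counting interval.

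Its relative *Foxp1* gave 393 and 431 CPM in GABAergic and 424 and 448 CPM in glutamatergic barcodes. The classes differed by less than the fit could tell from 0 (log2 fold -0.12 ± 0.22, edgeR adjusted p = 0.823). *Foxp4* gave 9.52 and 13.1 CPM against 7.50 and 8.20 CPM, 34 and 78 UMIs against 63 and 26, and was not called either (0.57 ± 0.32, edgeR adjusted p = 0.291). Within the Foxp family, only *Foxp2* was thus called between the classes. The difference between the family members was not tested.

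*Meis2* stood at 1139.9 and 1559 CPM in GABAergic and 187 and 261 CPM in glutamatergic barcodes (2.56 ± 0.32, edgeR adjusted p = 7.61e-05). At equal depth its glutamatergic share was 22.8% and 22.0% and that of oligodendrocyte-marker barcodes 11.6% and 17.7%. Only the gap in library 3, 45 of 205 against 32 of 181 barcodes, is called within counting error. At full depth 50 (10.3%) and 36 (17.3%) glutamatergic barcodes held 10 or more *Meis2* UMIs. *Tshz1* gave 211 and 249 CPM against 35.5 and 47.0 CPM (2.47 ± 0.23, edgeR adjusted p = 7.42e-06). Its glutamatergic share at equal depth was 5.91% and 12.2%, and that of oligodendrocyte-marker barcodes 11.6% and 11.05%. The glutamatergic share was thus the lower in library 2 and close to that set in library 3. *Tshz2*, of the same zinc finger family, went the other way, with 160.2 and 154 CPM in GABAergic and 553 and 654 CPM in glutamatergic barcodes (-1.99 ± 0.23, edgeR adjusted p = 4.02e-05). It was found in 25.8% and 25.6% of GABAergic and 67.1% and 64.4% of glutamatergic barcodes.

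*Pax6* gave 23.8 and 15.95 CPM in GABAergic barcodes (85 and 95 UMIs) and 0.714 and 1.58 CPM in glutamatergic barcodes (6 and 5 UMIs), with a log2 fold of 4.30 ± 0.42 (edgeR adjusted p = 1.21e-05). Its ratio was 33.3 in library 2 and 10.1 in library 3. *Six3* had 48 and 83 UMIs in the GABAergic sums and 1 UMI in each glutamatergic sum, a ratio of 113 (19.3 to 4551) in library 2 and 44.2 (7.72 to 1767) in library 3. It was called (6.14 ± 0.56, edgeR adjusted p = 6.60e-06), and at so few glutamatergic UMIs the size of the fold is poorly fixed. *Isl1* had 1 and 5 GABAergic UMIs and 0 in both glutamatergic sums, too few to be tested, and 0 of 484 and of 208 barcodes allows a share of up to 0.6198% and 1.44%.

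*Zfhx3* depended on the measure. Its level was higher in GABAergic barcodes, with 95.8 and 129 CPM against 49.7 and 74.1 CPM (0.86 ± 0.25, edgeR adjusted p = 0.0305). Its share of barcodes was lower, with 20.9% and 19.8% against 40.1% and 35.1%. At an equal 2000 UMIs the shares were 10.1% and 10.6% against 8.65% and 9.76%, which is within counting error. The tenth of GABAergic barcodes richest in *Zfhx3* held 87.7% and 89.6% of its UMIs in that class, against 54.4% and 68.9% in glutamatergic barcodes, so few barcodes set the GABAergic level. The call was lost with DESeq2 (adjusted p = 0.0796) and when classes needed 3 UMIs of their transmitter genes (edgeR adjusted p = 0.240).

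Shares were also compared within ranges of depth that double from 2000 UMIs, in 7 pairs of a range and a library with at least 20 barcodes of each class. *Foxp2*, *Meis2*, *Tshz1*, *Pax6* and *Six3* had the higher share in GABAergic barcodes in 7 of 7, and their intervals were apart in 6, 2, 4, 3 and 4 of these. *Tshz2* was lower in 7 of 7 with intervals apart in 6. *Foxp1* was lower in 6 of 7, *Zfhx3* in 5 and *Foxp4* in 3, in none of them with intervals apart.

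With library 1 added, 7 GABAergic against 42 glutamatergic barcodes joined the fit, and none of the 10 genes was called by edgeR. The *Foxp2* log2 fold was then 4.00 (edgeR adjusted p = 0.123). Of all 11750 genes tested in that fit 1 was called, and 437 higher and 471 lower genes passed an unadjusted p of 0.05.

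Genes of the same families and regions were counted from lists. Of 15 relatives of the 10 genes, 5 were tested, of which *Zfhx4* (log2 fold 1.08, edgeR adjusted p = 0.000831) and *Meis1* (1.54, adjusted p = 0.0187) were higher in GABAergic barcodes and *Tshz3* was lower (-1.57, adjusted p = 4.38e-05). *Tshz3* thus followed *Tshz2*, and *Meis1* followed *Meis2*. The median log2 fold of the 5 was 0.65, beside 0.02 over all genes tested.

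Of 17 transcription factor genes of the ganglionic eminences and the striatum, 12 were tested, 7 were higher and 0 lower, with a median log2 fold of 2.87. *Sp9*, a factor of newborn striatal and interneuron precursors, rose from 0.595 and 0.946 CPM to 12.9 and 17.1 CPM. *Rarb*, a retinoic acid receptor gene active in the striatum, gave 133 and 241 CPM in GABAergic and 31.9 and 26.8 CPM in glutamatergic barcodes, and *Dlx1*, a homeobox gene of GABAergic precursors, 25.8 and 10.7 CPM against 0.238 and 0.946 CPM. *Six3os1*, an antisense neighbour of *Six3*, gave 9.80 and 10.2 CPM against 0.357 and 0.315 CPM. Reads of such a pair can be told apart only if counting used strand, which is not given in the sources used here. *Bcl11b*, *Ebf1*, *Rxrg* and *Ikzf1* were among those tested and not called.

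Of 12 effector genes of striatal and intercalated neurons, 9 were tested and 8 were higher in GABAergic barcodes, led by *Rgs9* (a regulator of striatal G protein signalling, log2 fold 3.26), *Penk* (proenkephalin, 4.44), *Oprm1* (the mu opioid receptor, 1.26) and *Gng7* (a striatal G protein subunit, 1.12). *Pde10a*, the striatal phosphodiesterase, was not called (0.34, edgeR adjusted p = 0.488) and was found in 93.6% and 91.6% of GABAergic and 97.9% and 98.1% of glutamatergic barcodes. Of 10 pallial factor genes, 9 were tested, 7 were lower in GABAergic barcodes and 1 was higher. *Neurod2* (-3.58), *Fezf2* (-4.37) and *Lmo3* (-1.63) were lower, and *Bcl11a*, a zinc finger gene also used by interneurons, was the one that was higher (1.97, edgeR adjusted p = 0.000804). The lists were drawn up with earlier results of these data known, so their direction is not independent evidence.

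Several of the factors were not particular to neurons. Barcodes without transmitter genes were assigned by marker lists to 6 non-neuronal sets, of which the list for oligodendrocyte precursors went against its name (*Pdgfra* in 28.8% and 20.4% of its barcodes, the neuronal *Snap25* in 69.1% and 80.4%) and was left out. The ependymal-marker set is called by its list only, since *Foxj1*, a factor of ciliated cells, was found in 0% of its barcodes and *Tnr*, of the precursor list, in 57.4% and 67.9%. These sets were shallow, with medians of 1185.5 to 2949 UMIs, and small where 28 to 85 barcodes of a library made up the microglia-marker, vascular-marker and ependymal-marker sets. They are described without a test.

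**Figure D2:**
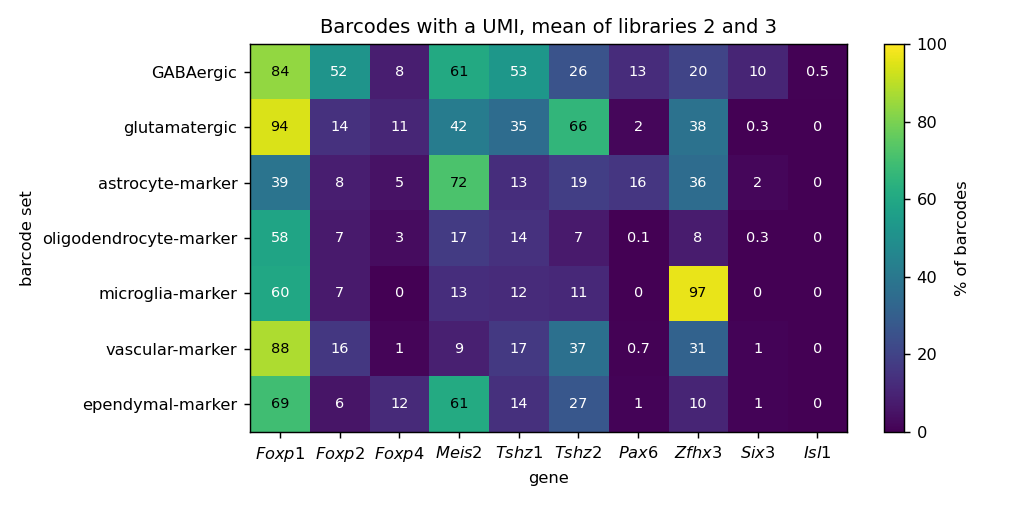
The plot gives the share of barcodes with a UMI of each gene, as the mean of libraries 2 and 3, by barcode set, at the full and unequal depth of each set. *Foxp2* peaks in GABAergic barcodes, *Tshz2* in glutamatergic barcodes and *Zfhx3* in microglia-marker barcodes.

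*Zfhx3* had its highest level in microglia-marker barcodes, at 3618 and 3542 CPM and in 96.5% and 97.1% of them. The *Zfhx3* levels of 95.8 and 129 CPM in GABAergic barcodes lay below those of vascular-marker (468 and 308 CPM) and astrocyte-marker barcodes (211 and 204 CPM) in both libraries. *Foxp1* was highest in vascular-marker barcodes, with 2032 and 2081 CPM, and its GABAergic, glutamatergic and oligodendrocyte-marker levels, 393 to 564 CPM, overlapped. *Cx3cr1*, a microglial marker, was present in 6.44% and 4.43% of GABAergic and 9.09% and 8.17% of glutamatergic barcodes. Its part in the *Zfhx3* values was not tested.

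*Meis2* followed its GABAergic level with 611 and 699 CPM in astrocyte-marker and 584 and 607 CPM in ependymal-marker barcodes, both above the glutamatergic level in both libraries. *Pax6* was highest in astrocyte-marker barcodes, at 64.7 and 50.3 CPM, ahead of GABAergic barcodes at 23.8 and 15.95 CPM. Ependymal-marker barcodes gave 11.02 and 0 CPM of *Pax6*, from 2.13% of 47 and 0% of 28 barcodes, too few to rank this level. *Tshz2* gave 677 and 737 CPM in vascular-marker barcodes, just above the 553 and 654 CPM of glutamatergic barcodes.

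*Foxp2* and *Tshz1* had their highest level in GABAergic barcodes in both libraries. The next level of *Foxp2* was that of vascular-marker barcodes, 194 and 149 CPM. For *Tshz1* the vascular-marker level, 194 and 102.6 CPM, overlapped that of microglia-marker barcodes, 46.2 and 155 CPM. *Six3* gave 13.4 and 13.9 CPM in GABAergic and 5.56 and 6.39 CPM in astrocyte-marker barcodes, with 16.1 and 0 CPM in the small vascular-marker set. That set had a *Six3* UMI in 2.22% of 45 and 0% of 71 barcodes, too few to rank its level. *Foxp4* gave 66.1 and 75.9 CPM in ependymal-marker barcodes, from 6 and 4 UMIs. It was listed at 0 UMIs in microglia-marker barcodes of both libraries, in sums of 151465 and 51669 UMIs. Sums of that size cannot tell 0 from its GABAergic and glutamatergic levels.

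Inside the GABAergic class the factors were not spread evenly. *Foxp2* was at 0 in 55.9% and 40.6% of GABAergic barcodes and at 10 or more UMIs in 26.3% and 38.0%, with 3.09% and 5.91% at 1 UMI, 4.90% and 4.14% at 2 to 4 and 9.79% and 11.4% at 5 to 9. *Meis2* showed the same split, with 46.1% and 32.6% at 0 and 38.7% and 50.1% at 10 or more. For both genes, barcodes at 0 and at 10 or more UMIs were each more frequent than any count range between. *Foxp1* did not, with 42.5% and 38.1% of barcodes at 2 to 4 UMIs. In glutamatergic barcodes *Tshz2* was at 0 in 32.9% and 35.6% and at 10 or more UMIs in 33.1% and 37.0%.

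At an equal 2000 UMIs, 4 or more of the 10 factors were found in 17.3% and 22.3% of GABAergic and in 1.27% and 2.93% of glutamatergic barcodes. At full depth the shares were 43.8% and 52.7% against 29.8% and 31.2%, and no barcode of either class held more than 8.

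Which factors occurred together was described by counting barcodes with both genes and dividing by the number expected from the margins within groups of about 20 barcodes of like depth. A ratio is given where at least 5 barcodes were expected in each library, which held for 35 of 45 pairs in GABAergic and 20 in glutamatergic barcodes. No p is given, since barcodes of a library are not replicates. Of the 35 GABAergic pairs, 17 were above 1 in both libraries, 9 below 1 in both, and 9 on different sides. Of the 20 glutamatergic pairs, 10 were above 1 in both libraries, 3 below 1 in both and 7 on different sides. The median over pairs was 1.01 in GABAergic and 1.02 in glutamatergic barcodes. The range was wider in GABAergic barcodes, where mean ratios ran from 0.296 to 1.91, against 0.760 to 1.36 in glutamatergic barcodes. The classes differ in which pairs had enough barcodes, and this difference was not tested.

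**Figure D3:**
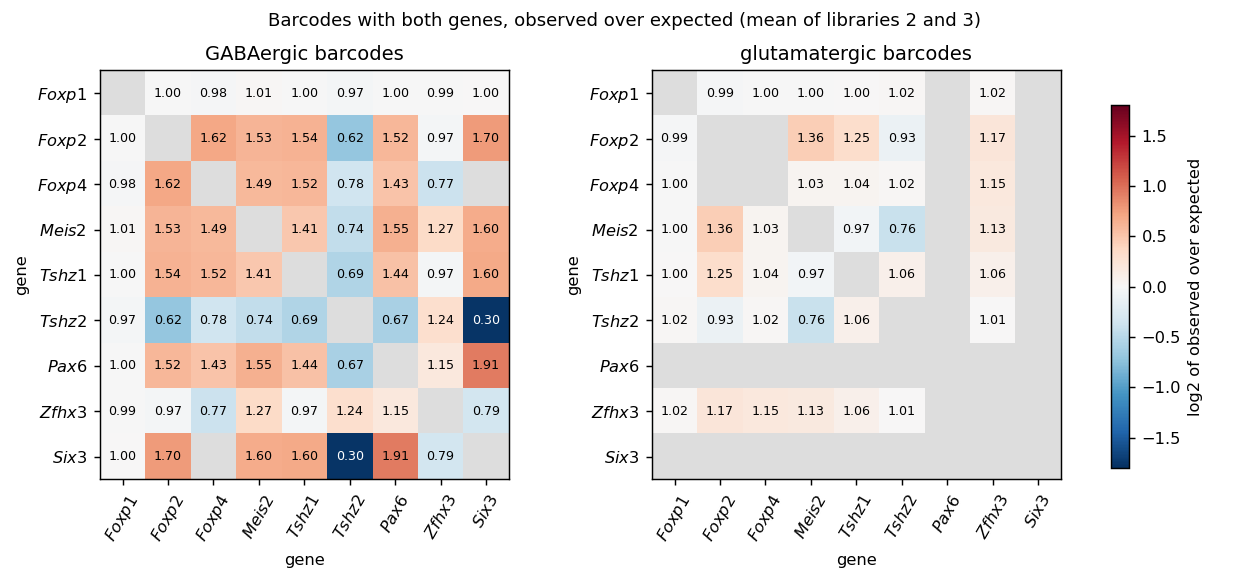
Each cell gives the number of barcodes with both genes over the number expected within depth groups, as the mean of libraries 2 and 3, in GABAergic (left) and glutamatergic barcodes (right). Grey cells had fewer than 5 expected barcodes in a library. *Foxp2*, *Foxp4*, *Meis2*, *Tshz1*, *Pax6* and *Six3* form a red block on the left, with *Foxp4* against *Six3* in grey, *Tshz2* is blue against all of them, and *Foxp1* is close to 1.

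*Foxp2*, *Meis2* and *Tshz1* occurred together. *Foxp2* with *Meis2* was seen in 162 barcodes of library 2 where 94.9 were expected (ratio 1.71) and in 369 of library 3 where 275 were expected (ratio 1.34). *Meis2* was found in 94.7% and 91.8% of GABAergic barcodes with *Foxp2* and in 21.7% and 31.6% of those without. *Tshz1* was found in 86.0% and 80.1% of barcodes with *Foxp2* and in 21.7% and 19.6% of those without, with ratios of 1.66 and 1.42. Of the 16 ways in which *Foxp2*, *Meis2*, *Tshz1* and *Tshz2* can be present or absent, the first 3 without *Tshz2* held 33.2% and 39.7% of GABAergic barcodes, against 1.45% and 2.40% of glutamatergic ones. The next GABAergic state was none of the 4, with 21.4% and 16.7%, and *Tshz2* alone held 13.7% and 6.94%.

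The rarer factors fell into the same barcodes. *Six3* was found in 18.2% and 15.8% of GABAergic barcodes with *Meis2* and in 0 of 179 and 0 of 221 barcodes without it, which allows up to 1.68% and 1.36%. *Pax6* was found in 26.3% and 14.9% of barcodes with *Meis2* and in 1.68% and 1.36% of those without (ratios 1.72 and 1.38). *Foxp4* was found in 14.0% and 14.2% of barcodes with *Foxp2* and in 3.23% and 1.09% of those without (ratios 1.68 and 1.56). *Pax6* with *Six3* had the highest mean ratio of the pairs, 1.71 and 2.10, from 12 and 18 barcodes. A pair with a common gene such as *Meis2* cannot reach as high a ratio as a pair of rare genes. This order is thus not one of strength.

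*Tshz2* was set against these factors. It was found in 14.0% and 17.2% of GABAergic barcodes with *Foxp2* and in 35.0% and 37.8% of those without (ratios 0.551 and 0.690). With *Tshz1* the ratios were 0.592 and 0.784, with *Meis2* 0.596 and 0.879, and with *Six3* 0.0992 and 0.492. With *Zfhx3* they were above 1, at 1.22 and 1.26. *Zfhx3* was above 1 with *Meis2* too, at 1.22 and 1.32. In glutamatergic barcodes *Tshz2* with *Tshz1* gave 1.03 and 1.09, and *Tshz2* with *Meis2* gave 0.6999 and 0.819. The difference between the classes was not tested.

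For *Foxp1* the measure could show little above 1, since a gene found in 84.0% and 83.6% of barcodes leaves little room there. Its 8 ratios in GABAergic barcodes ran from 0.960 to 1.02 in single libraries. Ratios well below 1 were possible for its rarer partners and were not seen. With at least 2 UMIs asked of each gene, 20 pairs had enough barcodes and 9 were above 1 in both libraries.

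Promoters are shown for *Six3*, *Pax6* and *Meis2*, since the first pair had the highest ratio and both were tied to *Meis2*. RefSeq (GRCm38.p6) gave 11 promoter windows for 8 of the 10 genes, each of 250 bases before to 50 bases after a start, written 5′ to 3′ on the strand of the gene. Of the 2 *Pax6* windows the one that holds these letters is shown, and the other, chr2:105668646-105668945, has no match. Capitals mark the letters TGACAG or their reverse complement CTGTCA, the core bound by Meis proteins.
Six3, chr17:85620584-85620883, plus strand: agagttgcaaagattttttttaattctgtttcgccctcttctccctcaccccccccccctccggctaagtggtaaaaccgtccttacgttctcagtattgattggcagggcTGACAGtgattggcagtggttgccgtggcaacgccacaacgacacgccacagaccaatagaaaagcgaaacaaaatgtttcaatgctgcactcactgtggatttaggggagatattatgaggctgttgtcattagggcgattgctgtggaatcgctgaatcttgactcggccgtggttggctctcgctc
Pax6, chr2:105682213-105682512, plus strand: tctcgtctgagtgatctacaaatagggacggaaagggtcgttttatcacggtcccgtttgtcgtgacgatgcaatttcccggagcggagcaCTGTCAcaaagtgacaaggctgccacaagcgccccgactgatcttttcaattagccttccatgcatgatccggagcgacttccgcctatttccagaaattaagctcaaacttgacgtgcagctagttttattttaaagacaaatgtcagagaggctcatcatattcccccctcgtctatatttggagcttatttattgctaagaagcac
Meis2, chr2:116064570-116064869, minus strand: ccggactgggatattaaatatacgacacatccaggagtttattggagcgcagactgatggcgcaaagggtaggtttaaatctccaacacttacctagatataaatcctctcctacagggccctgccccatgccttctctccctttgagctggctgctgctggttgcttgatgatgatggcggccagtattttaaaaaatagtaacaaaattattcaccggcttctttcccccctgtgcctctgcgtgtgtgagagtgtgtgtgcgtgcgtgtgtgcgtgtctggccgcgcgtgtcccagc

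The Meis letters were found on either strand in 3 of the 11 windows, those of *Foxp1*, *Pax6* and *Six3*, and in 19.2% of all 32851 mouse windows. The homeodomain letters TAATTA, which read the same on both strands, were found in 1 of the 11 (*Foxp1*) and in 5.29% of all. The forkhead letters TGTTTAC or GTAAACA were found in none of the 11 and in 3.65% of all. No searched motif overlaps another. These matches are a description of letters, and the data hold no measurement of binding.

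Genes outside the 10 were set beside them in the same way, for 22 markers of striatal, intercalated and interneuron types in GABAergic barcodes. *Foxp2* occurred more often than expected with *Drd1* (the D1 dopamine receptor, ratios 1.84 and 1.41), *Penk* (1.76 and 1.36), *Rarb* (1.49 and 1.251) and *Lamp5* (1.49 and 1.29). It occurred less often with *Lhx6* (0.312 and 0.414), the factor of interneurons from the medial eminence, with *Sst* (somatostatin, 0.190 and 0.547) and with *Drd2* (the D2 receptor, 0.424 and 0.654). *Meis2* and *Tshz1* showed these directions for *Drd1*, *Penk*, *Lamp5*, *Lhx6* and *Sst*. *Tshz2* showed the converse for *Drd1* (0.617 and 0.698), *Penk* (0.511 and 0.720) and *Lamp5* (0.230 and 0.573), and was found more often with *Lhx6* (1.66 and 1.53), *Sst* (1.70 and 1.55) and *Calb1* (calbindin, 1.47 and 1.49). With *Rmst*, a long non-coding RNA by which the study marks a GABAergic cluster together with *Tshz2*, its ratios were 1.23 and 1.36. *Six3* occurred with *Penk* (mean ratio 1.69) and *Oprm1* (1.53 and 1.29), and *Zfhx3* with *Rmst* (1.56 and 1.30).

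The study marks intercalated cells by *Foxp2* and amygdalostriatal cells by *Rarb*, so GABAergic barcodes with at least 2 *Foxp2* UMIs were split by *Rarb*. *Rarb* was present in 83 and absent in 76 of them in library 2 (medians 8016 and 7379 UMIs), and present in 202 and absent in 160 in library 3 (medians 7038.5 and 6990.5 UMIs). The barcodes were chosen by *Foxp2* and *Rarb*, and the values below are a description.

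**Figure D4:**
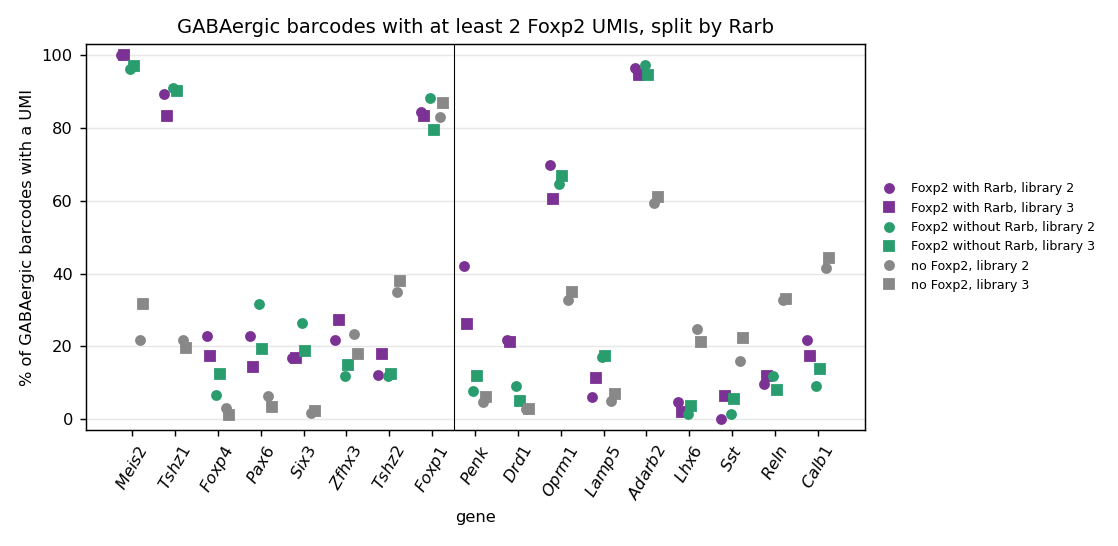
Points give the share of GABAergic barcodes with a UMI of each gene in library 2 (circles) and library 3 (squares), for barcodes with at least 2 *Foxp2* UMIs with or without *Rarb* and for barcodes with 0 *Foxp2* UMIs. Factors are left of the line and other genes right of it. *Meis2* and *Tshz1* are found in over 80% of both *Foxp2* sets, while *Penk* and *Drd1* are higher in the set with *Rarb*.

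*Meis2* was found in 100% and 100% of barcodes with both *Foxp2* and *Rarb* and in 96.1% and 96.9% of those without *Rarb*, so it did not tell the sets apart. *Tshz1* was found in 89.2% and 83.2% against 90.8% and 90.0%. *Zfhx3* was found more often with *Rarb* in both libraries, 21.7% and 27.2% against 11.8% and 15.0%. So was *Foxp4*, 22.9% and 17.3% against 6.58% and 12.5%. Their levels had this order in library 2 only. In library 3 *Zfhx3* gave 108 CPM with and 117 CPM without *Rarb*, and *Foxp4* 22.7 and 23.5 CPM. *Pax6* was lower with *Rarb*, 22.9% and 14.4% against 31.6% and 19.4%, as was *Six3*, 16.9% and 16.8% against 26.3% and 18.8%. For *Zfhx3*, *Foxp4*, *Pax6* and *Six3* the intervals of the sets overlapped in both libraries. *Isl1* was seen in 0% and 1.98% with *Rarb* and in 0% without. After thinning to 2000 UMIs, *Six3* was at 7.804% with and 4.28% without *Rarb* as a mean of both libraries, the other order, and *Foxp4* at 5.75% and 5.51%. *Pax6* kept its order, 4.65% with and 8.57% without *Rarb*, as did *Zfhx3*, 9.94% and 6.14%.

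Among the other genes, *Drd1* was found in 21.7% and 21.3% of barcodes with *Foxp2* and *Rarb* and in 9.21% and 5.00% of those without *Rarb*. For *Penk* the shares were 42.2% and 26.2% against 7.89% and 11.9%. *Lamp5* went the other way, 6.02% and 11.4% against 17.1% and 17.5%. *Adarb2*, an RNA editing gene often used to mark interneurons of the caudal eminence, was found in 96.4% and 94.6% with and 97.4% and 94.4% without *Rarb*, and in 59.4% and 61.1% of barcodes with 0 *Foxp2* UMIs. Its level had the other order. It was 2856 and 2428 CPM with and 2909 and 2384 CPM without *Rarb*, and 5188 and 5950 CPM in barcodes with 0 *Foxp2* UMIs. Both *Foxp2* sets thus held *Adarb2*, a gene of the interneuron list used next.

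The second comparison was made inside the GABAergic class, between barcodes led by 9 striatal genes and barcodes led by 11 interneuron genes, none of them among the 10. A barcode was assigned where 1 list had at least 3 UMIs and at least 3 times the UMIs of the other. This gave 39 and 67 striatal-marker and 211 and 348 interneuron-marker barcodes in libraries 2 and 3, and left 138 and 262 unassigned. The striatal sum was mostly *Pde10a* (77.9% and 69.5% of its UMIs) and the interneuron sum mostly *Adarb2* (58.8% and 61.2%). *Drd1* was found in 0% and 8.96% of the striatal-marker barcodes, and in 8.53% and 6.61% of the interneuron-marker barcodes, of which 92.4% and 87.4% also held *Pde10a*, so the sets go by their leading genes and are not named as cell types.

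Of 9 factors tested among 8867 genes, *Foxp1*, *Meis2*, *Tshz1*, *Pax6*, *Zfhx3* and *Six3* were called higher in striatal-marker barcodes, where 4.96% of all genes were. *Tshz2* was called lower, where 5.03% were, and *Foxp2* and *Foxp4* were not called. *Zfhx3* gave 436 and 413 CPM against 43.9 and 49.998 CPM, the groups well apart (log2 fold 3.18 ± 0.23, edgeR adjusted p = 4.63e-13). *Foxp1*, level between neuron classes, gave 814 and 1054 CPM against 358 and 342 CPM (1.45 ± 0.25, edgeR adjusted p = 4.35e-05). *Meis2* gave 2345 and 2538 CPM against 685 and 1072 CPM (1.48 ± 0.30, edgeR adjusted p = 0.000443).

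*Foxp2* gave 857 and 1377 CPM in striatal-marker and 455 and 884 CPM in interneuron-marker barcodes, so that the groups overlapped across libraries (0.76 ± 0.30, edgeR adjusted p = 0.115). With the library as a block it was called (edgeR adjusted p = 4.17e-07), being higher in the striatal-marker set within each library, and so it was when the GABAergic class needed 3 UMIs of its genes (1.11, edgeR adjusted p = 0.0197). The block raised the number of genes called from 886 to 1342. *Adarb2*, which led the interneuron list, was found in most *Foxp2* barcodes, so the full lists could keep these out of the striatal-marker set. *Foxp2* was found in 32.2% and 48.0% of the interneuron-marker barcodes. The part of *Adarb2* in the missing *Foxp2* call was not tested. *Foxp4* gave 2 and 8 striatal-marker UMIs and could not be told from 0 (0.05 ± 0.59).

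The remaining calls leaned on library 2. *Tshz2* gave 27.4 and 91.1 CPM against 182.5 and 153 CPM (-1.31 ± 0.29, edgeR adjusted p = 0.00113), from 9 striatal-marker UMIs in library 2, and its log2 fold was -2.71 in library 2 and -0.72 in library 3. *Six3* gave 39.6 and 16.1 CPM against 4.39 and 9.06 CPM (1.86 ± 0.53, edgeR adjusted p = 0.0162), with 3.16 and 0.85 in the single libraries. *Tshz1* gave 433 and 279 CPM against 133 and 176 CPM (1.18 ± 0.23, edgeR adjusted p = 0.000359), with 1.71 and 0.69. *Pax6* passed the threshold by little (1.27 ± 0.43, edgeR adjusted p = 0.0497, 16 and 12 striatal-marker UMIs), with 1.70 and 0.81 in the single libraries. DESeq2 called neither *Pax6* (adjusted p = 0.426) nor *Six3* (0.178) nor *Tshz2* (0.0506).

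**Figure D5:**
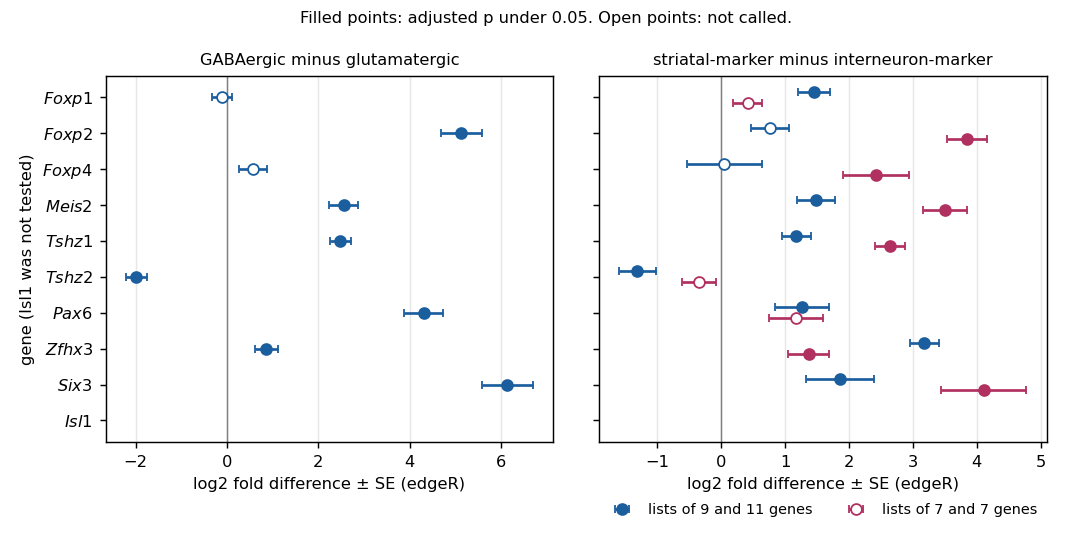
Points give the edgeR log2 fold difference with its SE for GABAergic minus glutamatergic barcodes (left) and striatal-marker minus interneuron-marker GABAergic barcodes (right), the latter with the full lists (blue) and with the shorter lists (red). Filled points passed an adjusted p of 0.05. With the shorter lists *Foxp2* moves from 0.76 to 3.85 and *Foxp1* from 1.45 to 0.41.

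Since *Adarb2* and *Pde10a* led the lists, the comparison was repeated with 7 striatal genes (among them *Drd1*, *Drd2*, *Adora2a*, *Ppp1r1b*, *Rgs9* and *Rarb*) and 7 interneuron genes (*Lhx6*, *Sst*, *Vip*, *Npy*, *Lamp5*, *Prox1*, *Reln*), a choice made after the data were seen. It gave 83 and 188 striatal-marker and 93 and 133 interneuron-marker barcodes, the former led by *Rarb*, which was found in 86.7% and 92.6% of them, with *Adarb2* still in 85.5% and 88.8%. *Rarb* occurred with *Foxp2* more often than expected. *Adarb2*, left out of the shorter interneuron list, was found in most barcodes of both *Foxp2* sets. The choice thus favoured a higher *Foxp2* in the striatal-marker set, and adjusted p values with these lists are no independent test. With these lists *Foxp2* gave 1489 and 1924 CPM against 91.6 and 147 CPM (log2 fold 3.85, edgeR adjusted p = 4.05e-07). *Meis2* rose to 3.51, *Tshz1* to 2.64, *Six3* to 4.11, and *Foxp4* was called at 2.42 (edgeR adjusted p = 0.00369). *Foxp1* (0.41, edgeR adjusted p = 0.305), *Tshz2* (-0.35, adjusted p = 0.519) and *Pax6* (1.17, adjusted p = 0.0851) were no longer called. *Zfhx3* fell to 1.37 and was still called. In this setting 6 factors were higher, where 6.86% of all genes were, and 0 were lower, where 5.79% were. *Meis2*, *Tshz1*, *Six3* and *Zfhx3* were the factors called higher with both pairs of lists. Both striatal lists held *Rarb*, and *Meis2* and *Tshz1* were found in most barcodes with *Foxp2* and *Rarb*. The shorter lists are thus no independent support for these calls. With the full lists *Tshz1* lost its call on thinning (0.66, edgeR adjusted p = 0.138), and *Six3* at a list ratio of 2 (edgeR adjusted p = 0.0554) and without the deepest 5% of barcodes (0.0521).

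Of the other list genes not used to assign barcodes, *Penk* was higher in the striatal-marker set of the full lists, with 79.3 and 58.9 CPM against 11.7 and 15.8 CPM (2.28, edgeR adjusted p = 2.28e-06), and *Oprm1* was not called (0.67, adjusted p = 0.0589). Of 7 striatal factor genes tested, *Rxrg*, a retinoid X receptor gene of the striatum, was higher (1.79) and *Dlx1* lower (-2.32). Of 5 relatives, *Zfhx4* (1.92) and *Meis1* (0.91) were higher and *Tshz3* was lower (-1.60), the directions of *Zfhx3*, *Meis2* and *Tshz2* in the same sets. Of 3 pallial genes tested, *Lmo3* (edgeR adjusted p = 0.184), *Bcl11a* (0.290) and *Mef2c* (0.925), 0 were called, and at an unadjusted p of 0.05 *Lmo3* passed (0.0320).

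For each factor the 3 genes most like it were named, by the correlation of detection (phi) over GABAergic barcodes within depth groups, in the library where it was lower, among 8801 genes found in at least 5% of barcodes of both libraries. For *Foxp2* these were *Meis2* (phi 0.725 in library 2 and 0.631 in library 3), *Chst9* (0.739 and 0.621) and *Tshz1* (0.647 and 0.607). For *Tshz1* they were *Foxp2*, *Chst9* and *Meis2*, and for *Meis2* they were *Foxp2*, *Otof* (0.728 and 0.628) and *Ano3* (0.614 and 0.590). The gene nearest to *Foxp2* was thus *Meis2*, and the gene nearest to both *Meis2* and *Tshz1* was *Foxp2*. *Six3* was nearest to *Otof* (0.282 and 0.265), *Meis2* and *Chst9*, and *Pax6* to *Otof* (0.275 and 0.242), *Meis2* and *Gm15155*. *Tshz2* was nearest to *Sox6*, a factor of interneurons from the medial eminence (0.357 and 0.274), and *Zfhx3* to its relative *Zfhx4* (0.252 and 0.344). *Foxp4* was nearest to *Foxp2* (0.199 and 0.226), and for *Foxp1* the nearest, *Gabpb1*, reached 0.0968 and 0.0951. The coefficients rest on 388 and 677 barcodes that share library and depth, and weak values are no finding.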

How the data were processed

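Single-nuclei RNA was measured in 3 libraries, and the authors deposited UMI counts per gene and barcode, made with Cell Ranger 7.0.1 on mm10 per the submitters' processing notes. Whether counting used strand is not given in the sources used here. Barcodes with over 200 genes, under 20% mitochondrial and under 0.2% haemoglobin UMIs were kept (819, 3772 and 4512). No doublet caller was run, and barcodes with UMIs of both transmitters were left out of both classes.

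UMI counts were summed per class and library and tested on libraries 2 and 3 with edgeR 4.0.16 (its filter on low counts, quasi-likelihood, TMM, Benjamini-Hochberg adjusted p under 0.05, R 4.3.3). DESeq2 1.42.0, other filters, thinning, other class rules and library 1 were alternatives. Scripts ran in Python 3.11.15 with numpy 2.4.6, scipy 1.17.1 and pandas 2.3.3 and were tested on simulated data. Both class sums of a library come from the same nuclei pool, so the library pairs them. Deviations of same-numbered sums from their class means correlated at 0.287 (neuron classes) and 0.192 (marker sets) over genes. With this block, 3197 rather than 2120 genes were called between neuron classes.

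Members and lists were chosen with earlier results of these data known. All 10 members were named, with up to 4 list examples by smallest p and the 3 most alike genes. Some list genes are not reported here. A barcode was put in a non-neuronal set at 5 or more UMIs of a list and 3 times every other list.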

Additional observations from a re-analysis of the deposited data

Results flagged for a closer look

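For 3 pairs the co-detection ratio lay on 1 side of 1 in both libraries in GABAergic barcodes and on the other side in glutamatergic barcodes, and the difference between the classes was not tested. The mean ratio of *Tshz1* with *Tshz2* was 0.688 in GABAergic and 1.06 in glutamatergic barcodes. For *Foxp4* with *Zfhx3* it was 0.768 against 1.15, from 4 and 11 GABAergic barcodes. For *Foxp1* with *Tshz2* it was 0.972 against 1.02.

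In library 1, which entered no main comparison, 3 factors were found in a larger share of its 42 glutamatergic barcodes than the intervals of both other libraries allow. *Foxp2* was found in 61.9% (45.6% to 76.4%), *Meis2* in 85.7% (71.5% to 94.6%) and *Pax6* in 28.6% (15.7% to 44.6%). After thinning to 2000 UMIs these shares were 25.6%, 59.0% and 5.13%. Most library 1 barcodes with glutamate transporter UMIs also held a UMI of *Gad1* or *Gad2* (445 of 574), and the part of this in the shares was not tested.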

How the results depend on the processing

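The number of genes tested differed between settings and is given with each count. Between neuron classes, 7 of 9 factors and 2120 of 12865 genes were called. DESeq2 called 1387 of 22801 genes, the replicate block 3197 of 12865 and thinning 1113 of 7725. With replicate 1 added 0 of 9 factors and 1 of 11750 genes were called, and *Foxp4* turned to -0.26. Between the marker sets, 7 of 9 factors and 886 of 8867 genes were called. DESeq2 called 4 of 10 factors and 377 of 19684 genes, and thinning 3 of 7 and 396 of 4152. Replicate 1 added called 2 of 6 factors and 248 of 5438 genes. A list ratio of 2 called 4 of 9 factors, all higher, where 290 of 9620 genes were higher and 327 lower. The replicate block called 1342 of 8867 genes there and changed no factor's call but that of *Foxp2*. *Foxp4* turned to -0.033 with no filter, -0.070 without the deepest 5% of barcodes and -0.18 at a list ratio of 2. The median of all genes moved to -0.30 with no filter between the marker sets and to -0.11 with replicate 1 added between classes.

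With 2 or more UMIs asked of each gene, 9 of 20 pairs with enough barcodes were above 1 in both libraries, against 17 of 35. Leaving out a library leaves 1 sum per class and no test. The number of factors with a log2 fold above 0 was then 7 to 7 between classes and 7 to 8 between marker sets, with 21 to 22 pairs above 1 and 6 to 6 factors with the higher GABAergic share. Share differences (points, GABAergic minus glutamatergic) turned to 2.06 for *Foxp4* and 1.15 for *Zfhx3* with thinning, to 0.44 for *Foxp4* without the deepest 5%, and to 6.47 for *Foxp4* and -2.10 for *Pax6* with replicate 1 added. Of the factors' log2 folds under alternatives, 96 of 108 between classes and 101 of 129 between marker sets were counted as kept. Where a test was run, this meant the same direction and side of the threshold. For values with a library left out it meant a difference from the main value within the spread between libraries. Within that spread lay 82 of 100 co-detection ratios and 46 of 70 share differences. For ratios and shares, values with a library left out always lie within it, so they add to these counts without being able to fail. The causes were not tested. The shorter lists were chosen after seeing the data. *Isl1*, *Six3*, *Pax6* and *Foxp4* rest on 1 to 95 GABAergic UMIs a library, which limits the precision of their values.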
